A study of Sus scrofa with 24 samples.

Results

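The solute carrier (SLC) genes encode a large superfamily of membrane transport proteins that are neither ATP-driven pumps nor channels. Members were taken as every probe whose gene symbol starts with SLC followed by a digit, with SLC8A1 and SLC7A7 left out. The rule found 322 probes for 168 genes among 43603 probes on the array. Of these, 278 probes of 146 genes passed the detection limit (well above background on 3 or more of 24 arrays) and were measured, out of 6251 genes measured in all, and 22 member genes were below that limit. SLC9A3R1 and SLC9A3R2, which are scaffold proteins, and SLC2A4RG, a transcriptional regulator, carry such a symbol without being carriers, and they were kept because the rule names them.

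Heart muscle came from 9 domestic pigs in which a coronary artery had been closed and reopened by catheter, with the chest intact. At 1 month after the infarct the pigs received, by catheter into the heart muscle, either secretome (the products released by apoptotic mononuclear blood cells) or medium as placebo, and tissue was taken 1 month later. The infarct core and the border zone were sampled in 6 secretome pigs (11 to 16) and 3 medium pigs (10, 18 and 40). The normal region, away from the infarct, was sampled in 4 secretome pigs and 2 medium pigs, with no array for pigs 12, 13 and 40. Pigs 10, 18 and 40 carry the label not treated and were taken as the medium arm. Aspirin and clopidogrel were given in both arms, so no group is free of antiplatelet drugs, and the normal region comes from hearts that had been infarcted and injected. The series asks how regions of the ischaemic heart differ and what the secretome changes in them.

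Carriers of this superfamily move sugars, amino acids, nucleosides, metals and inorganic ions down their gradients or coupled to the gradients of sodium and protons. In heart muscle the insulin-responsive glucose carrier GLUT4 (SLC2A4), the lactate carriers of the SLC16 family, fatty acid carriers of the SLC27 family and the inner-membrane carriers of the SLC25 family bring fuel to the mitochondria and return ATP to the cytosol. Growing and secreting cells rely on amino acid carriers such as SLC1A5 and on zinc and nucleotide sugar carriers that serve the Golgi apparatus.

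The share of probes well above background was 61.5% to 75.7% per array. The 75th percentile of signal was 210 to 617 intensity units, and both were lowest for the border zone of pig 40. Scanning took place in 2 series of 12 arrays, with pigs 12, 13, 16, 18 and 40 in series 1 and pigs 10, 11, 14 and 15 in series 2. The mean member level in series 1 minus that in series 2, over infarct core and border zone, ranged from -2.29 to 3.49 on the log2 scale (median -0.23), with 15 members above 1 and 19 below -1. Each series held both arms and all regions, so results are also given within a series. In series 1 the normal region was sampled only in secretome pig 16 and medium pig 18. The only medium pig of series 2 was pig 10. Arms were weighted equally, so values within a series rest partly on single arrays. Levels below are log2 of the processed signal over the 75th percentile of the same array, so that 0 is that percentile, and ± is an SD over arrays for a level and an SE for a log2 fold change. Levels of different genes come from different probes and are not compared.

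In the infarct core, 38 of the 146 measured solute carrier genes were higher and 44 were lower than in the normal region at an adjusted p under 0.05 in limma. Among all 6251 genes 58.6% changed, 27.9% higher and 30.7% lower, against 26% and 30.1% of the members, so the share of members that changed was near that of all genes. The median log2 fold change was -0.15 over the members and -0.06 over all genes. The change exceeded 2-fold for 19 members in each direction (14.4% of all genes higher and 13.2% lower). Of the called members, 29 were higher and 31 lower in every one of the 6 pigs with both regions (20.9% and 22.9% of all genes). Within the scan series, 81 of the 82 called members had the same direction in both, the exception being SLC1A1. The members were called on these same arrays, so this agreement is no independent check.

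**Figure D1:**
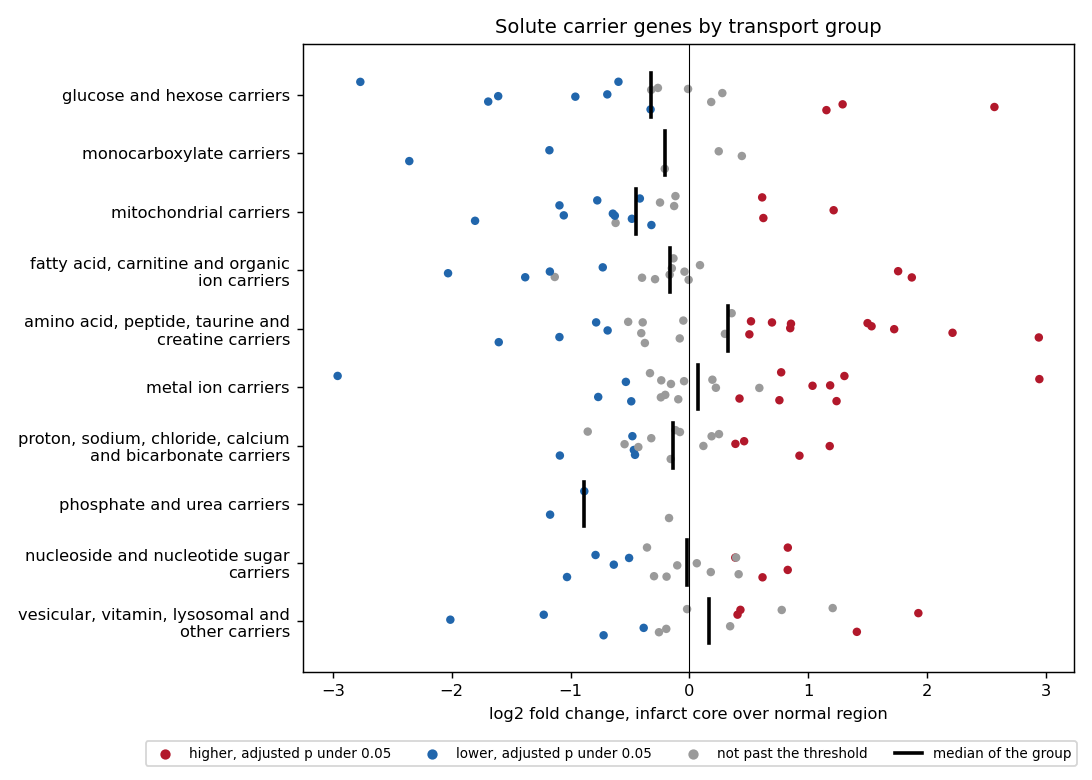
Log2 fold change of each measured solute carrier gene (points, x axis) in the infarct core over the normal region, by transport group (rows), with the group median as a black bar. Red points are higher and blue points lower at an adjusted p under 0.05 in limma, and grey points are not past it. Amino acid carriers hold 10 red points of 22 (27.9% of all genes are higher). Mitochondrial carriers hold 9 blue points of 16 (30.7% of all genes are lower).

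Markers of cell types moved with these regions. All 10 measured cardiomyocyte markers were lower in the infarct core than in the normal region, with a median log2 fold change of -1.95. Their mean log2 level was 3.65 to 9.22 in the infarct core and 8.93 to 9.62 in the normal region. All 12 macrophage markers were higher (median 1.63), with a mean level of 2.04 to 3.88 against 0.78 to 1.66 in the normal region. All 11 fibroblast and scar markers were higher (median 2.86), with 5.01 to 6.50 against 2.56 to 3.86, and so were all 7 T cell markers (median 1.26). Of 7 endothelial markers 3 were lower and none higher. In bulk tissue, fewer cells of a type and less RNA per cell cannot be told apart, and the part of these shifts in the values of single carriers was not tested.

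Of the 15 measured members of the glucose and hexose group, 3 were higher in the infarct core than in the normal region and 7 were lower (median log2 fold change -0.32). Among all genes 27.9% were higher and 30.7% lower, and the counts of groups and partner genes below are to be read against these shares. Groups follow family numbers, so this group also holds SLC2A4RG, which is no carrier, and the iodide carrier SLC5A5. SLC2A4 encodes GLUT4, the insulin-responsive glucose carrier of muscle and fat. Its level was lowest -0.88, median 2.84 and highest 5.24 over the 9 infarct core arrays, against 4.77, 5.50 and 6.06 over the 6 normal region arrays. The lowest infarct core array was that of medium pig 40, and the arrays of secretome pigs 11 and 15 (4.14 and 5.24) lay nearest the normal region, so the regions overlapped. The log2 fold change was -2.77 ± 0.45 (adjusted p = 3.05e-05), lower in all 6 pigs, with -3.53 within scan series 1 and -2.25 within series 2. The gene was read by its brightest probe, whose sequence is shown beside that of a further SLC2A4 probe that was well above background on only 2 arrays. Capitals mark the longest run of bases that both hold.
SLC2A4 brightest probe: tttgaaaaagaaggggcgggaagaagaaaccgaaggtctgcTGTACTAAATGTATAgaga
SLC2A4 dim probe: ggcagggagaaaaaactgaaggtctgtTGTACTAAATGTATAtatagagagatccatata
The other measured SLC2A4 probes had log2 fold changes of -2.34 and -2.42, so the 3 measured probes moved alike.

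SLC2A12 (GLUT12), a further insulin-sensitive glucose carrier of muscle, averaged -1.36 ± 0.47 in the infarct core (n = 9) and 0.46 ± 0.38 in the normal region (n = 6), a log2 fold change of -1.69 ± 0.22 (adjusted p = 2.62e-06). The arrays of the 2 regions did not overlap, as for 6 lower members in all (6.46% of all genes). SLC2A3 (GLUT3), the high-affinity carrier of neurons and blood cells, fell by 0.69 on the log2 scale (adjusted p = 0.0135), a call lost without pig 10 (adjusted p = 0.0717). SLC2A1 (GLUT1), the carrier of most cell types, was not past the threshold (0.28 ± 0.28, adjusted p = 0.432). SLC5A10, a sodium-coupled sugar carrier, fell by 1.61 on its brightest probe (adjusted p = 2.99e-05), whereas its other probe gave 0.35 ± 0.26 and was not past the threshold.

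The 3 hexose carriers that rose were SLC2A6, SLC2A8 and SLC5A1. SLC2A6 (GLUT6), found in spleen, leukocytes and brain, averaged -0.41 ± 0.85 in the infarct core (n = 9) and -2.92 ± 0.33 in the normal region (n = 6). Its lowest infarct core array (-1.70) lay above its highest normal region array (-2.39). The log2 fold change was 2.57 ± 0.23 (adjusted p = 1.25e-07), with 2.98 within scan series 1 and 2.25 within series 2, and the groups did not overlap, as for 16 higher members in all (9.82% of all genes). SLC2A8 (GLUT8), an intracellular hexose carrier, was also higher without overlap (1.29 ± 0.18, adjusted p = 5.02e-06). SLC5A1 (SGLT1), the sodium-coupled glucose carrier of the gut that the heart also has, rose by 1.15 ± 0.18, higher in 5 of 6 pigs. Of its 5 probes 4 were higher and 1 was not past the threshold.

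**Figure D2:**
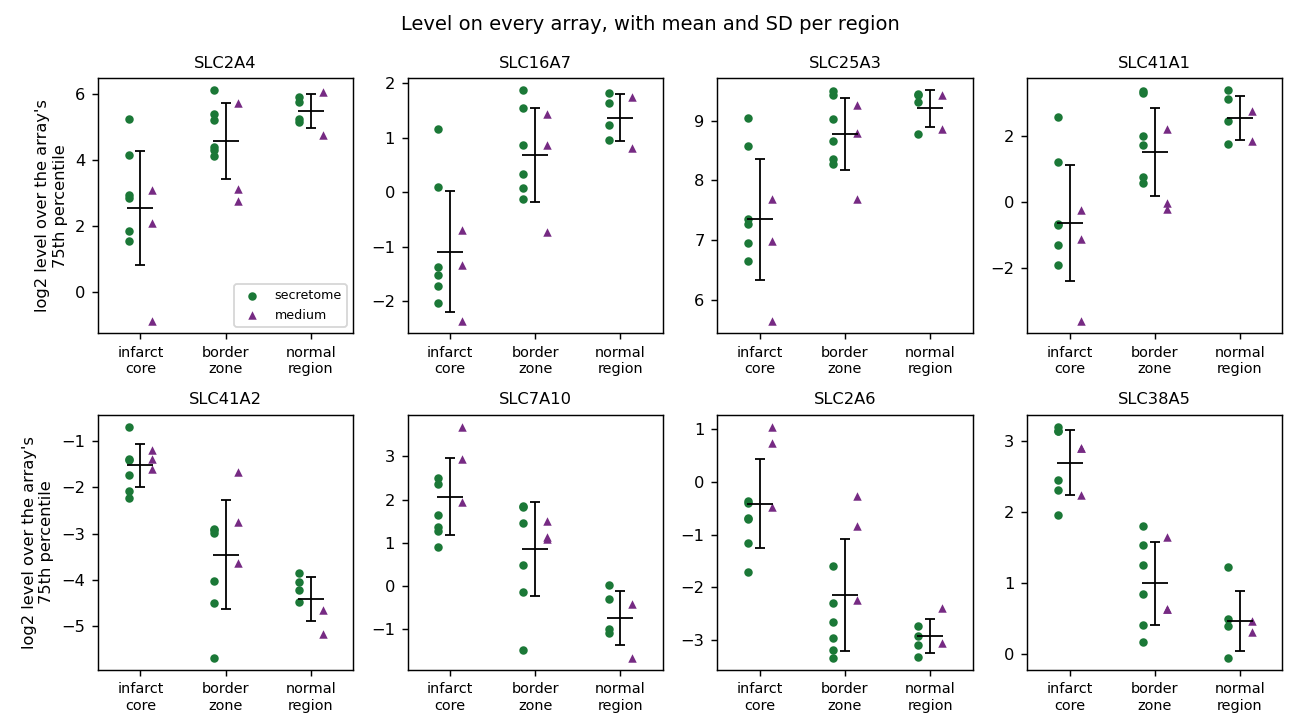
Log2 level over the array's 75th percentile (y axis) on every array for 8 solute carrier genes, with secretome pigs as circles and medium pigs as triangles and the mean and SD per region in black. The top row holds carriers lower in the infarct core and the bottom row carriers higher there; the border zone means lie between those of the other regions in all 8 panels.

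Monocarboxylate carriers move lactate, pyruvate and ketone bodies with a proton. Of 5 measured SLC16 genes, 2 were lower in the infarct core than in the normal region and none higher (30.7% and 27.9% of all genes). SLC16A7 (MCT2), the high-affinity pyruvate and lactate carrier, had a lowest, median and highest level of -2.37, -1.37 and 1.16 in the infarct core, against 0.81, 1.44 and 1.82 in the normal region. The groups overlapped through 1 secretome array, that of pig 15, and the log2 fold change was -2.36 ± 0.37 (adjusted p = 2.56e-05). SLC16A1 (MCT1), the main lactate carrier of oxidative muscle, fell by 1.18 on the log2 scale (adjusted p = 3.42e-05), and its arrays did not overlap between the regions. Its 7 probes ran from -1.54 to -1.12 and all were lower. SLC16A9 and SLC16A13 were not past the threshold on the probes that read them (0.44 ± 0.19 and 0.25 ± 0.12). The second SLC16A9 probe rose by 1.69 and was past the threshold, so the result for that gene depends on the probe. SLC16A3 (MCT4), the lactate exporter of glycolytic cells, was below the limit of detection used here. Among 16 partner genes of glycolysis and lactate, 2 were higher and 13 lower (median -1.33). BSG, the chaperone of SLC16A1, fell by 1.36, MPC2 of the mitochondrial pyruvate carrier fell by 1.75, and HK2 and LDHA rose by 1.88 and 1.04.

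Of the 16 mitochondrial carriers of the SLC25 family, 3 were higher and 9 lower (median -0.45), against 27.9% and 30.7% of all genes. SLC25A3, which brings phosphate into the matrix for ATP synthesis, averaged 7.35 ± 1.01 in the infarct core (n = 9) and 9.21 ± 0.31 in the normal region (n = 6). The infarct core arrays ran from 5.64 to 9.05 and the normal region arrays from 8.78 to 9.44, with overlap. The log2 fold change was -1.80 ± 0.29 (adjusted p = 3.17e-05), lower in 6 of 6 pigs, and its 10 probes gave -2.0 to -1.80. SLC25A44, SLC25A21, SLC25A15 and SLC25A43 fell by 0.78, 0.64, 0.48 and 0.42. Of the 2 SLC25A44 probes 1 was not past the threshold. The 4 SLC25A43 probes ran from -0.44 to -0.08, and 2 were not past it. SLC25A31 was called lower (adjusted p = 0.0108), but no infarct core array had it well above background, so no fold is given. SLC25A23, a calcium-regulated carrier of the same kind as SLC25A24, was not past the threshold on its brightest probe (-0.62 ± 0.28, adjusted p = 0.0636). Its other probe was past the threshold and lower (-0.71). Against the border zone both SLC25A23 probes were past the threshold and lower (-0.86 and -0.68). The carriers that rose were SLC25A24, a calcium-regulated ATP-Mg and phosphate carrier (1.21 ± 0.15), SLC25A27 (0.62 ± 0.19) and SLC25A32, the folate and FAD carrier (0.61 ± 0.11). Of 19 other genes of the mitochondrial membrane and ATP supply 1 was higher and 15 lower (median -2.09), among them VDAC1 (-1.69) and CKMT2 (-2.75), with TSPO higher (0.97).

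The ADP/ATP carriers, which exchange matrix ATP for cytosolic ADP, gave unlike values. The muscle isoform SLC25A4 was not analysed here. SLC25A6 fell by 0.32 on its brightest probe (adjusted p = 0.0431), a call lost without any one of pigs 10 and 12 to 16, and this value turned to 0.36 with quantile normalization and to 0.19 in the authors' deposited values. SLC25A5 fell by 0.63 on its brightest probe (adjusted p = 0.0411), a call lost without pig 12, 13, 14, 16 or 18, while its other 5 probes rose by 0.44 to 0.73. The mean over its 6 probes rose by 0.41 (adjusted p = 0.0180). The array files describe the SLC25A5 probes as another ADP/ATP carrier, so which isoform they read is unsure. The brightest probe and the next are shown because they moved in opposite directions.
SLC25A5 brightest probe, lower in the infarct core: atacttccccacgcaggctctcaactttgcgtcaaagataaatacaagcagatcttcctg
SLC25A5 next probe, higher in the infarct core: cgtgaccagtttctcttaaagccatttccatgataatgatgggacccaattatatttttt

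Fatty acid, carnitine and organic ion carriers held 2 higher and 4 lower members of 15 (27.9% and 30.7% of all genes). SLC27A1 (FATP1), which takes up long-chain fatty acids and activates them in muscle, ran from -0.04 to 1.46 in the infarct core and from 1.91 to 2.25 in the normal region. These arrays did not overlap, and the log2 fold change was -1.38 ± 0.20 (adjusted p = 1.04e-05), with all 3 probes lower. SLC27A3 (FATP3), a fatty acyl-CoA synthetase of the same family, went the other way: it averaged 1.65 ± 0.58 in the infarct core and -0.11 ± 0.38 in the normal region, a log2 fold change of 1.87 ± 0.23 (adjusted p = 1.55e-06). SLC22A16, a carnitine carrier, fell by 2.03 (adjusted p = 0.000486) with an infarct core range of -6.44 to -0.52 and a normal region range of -0.78 to 0.65. SLC22A7, an organic anion carrier, fell by 0.73 without overlap. SLC22A17, a lipocalin receptor, rose by 1.76 ± 0.26 (adjusted p = 9.92e-06) and was higher on all 3 probes. SLC22A4, the ergothioneine carrier, fell by 1.17 on a probe detected on all 24 arrays and rose by 1.16 on one detected on 15, so its direction depends on the probe. Their sequences follow.
SLC22A4 brightest probe, lower in the infarct core: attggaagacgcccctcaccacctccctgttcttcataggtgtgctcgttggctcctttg
SLC22A4 second probe, higher in the infarct core: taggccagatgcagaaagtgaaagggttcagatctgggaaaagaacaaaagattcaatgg
Of 17 partner genes of fatty acid uptake 2 were higher and 13 lower (median -1.59), CD36 by -2.48 and CPT1B by -2.81, with CPT1A (1.1) and ACSL5 (0.81) higher.

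Amino acid, peptide, taurine and creatine carriers were the transport group with the most higher members, 10 of 22 (27.9% of all genes). The group had 4 lower members (30.7% of all genes) and a median of 0.33. The 10 higher members include SLC7A8, SLC38A4 and SLC1A1, whose calls were each lost in several other settings. SLC7A10 (Asc-1), which exchanges small neutral amino acids and D-serine, was 0.90, 1.93 and 3.68 (lowest, median and highest) in the infarct core, against -1.66, -0.69 and 0.04 in the normal region. No infarct core array reached down to the normal region, and the log2 fold change was 2.94 ± 0.41 (adjusted p = 5.92e-06). SLC38A5 (SNAT5), a glutamine and glycine carrier, averaged 2.70 ± 0.46 in the infarct core (n = 9) and 0.47 ± 0.42 in the normal region (n = 6), a log2 fold change of 2.21 ± 0.29 (adjusted p = 3.28e-06) without overlap. SLC1A5 (ASCT2), the glutamine exchanger of dividing cells, ran from 3.58 to 4.86 in the infarct core and from 1.89 to 3.26 in the normal region, 1.72 ± 0.22 higher (adjusted p = 2.79e-06), and all 3 of its probes rose by 1.71 to 1.89. SLC3A1, SLC38A6 and SLC7A2, a cationic amino acid carrier of activated macrophages and liver, rose by 1.53, 1.5 and 0.85. The 3 SLC38A6 probes ran from 0.49 to 2.37, and 1 was not past the threshold. SLC3A2 (CD98), the heavy chain that brings several SLC7 carriers to the surface, rose by 0.50 ± 0.13 (adjusted p = 0.00268).

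Of the amino acid group, 4 carriers fell. SLC1A3 (EAAT1), a glutamate and aspartate carrier that also sits in the mitochondria of cardiac muscle, was -2.97 to -1.12 in the infarct core and -1.20 to -0.54 in the normal region, with a log2 fold change of -1.60 ± 0.17 (adjusted p = 5.29e-07). SLC6A8, the creatine carrier, averaged 0.35 ± 0.96 in the infarct core and 1.82 ± 0.63 in the normal region, -1.09 ± 0.37 (adjusted p = 0.0163), lower in 6 of 6 pigs. That call was lost without pig 10 or pig 18 (adjusted p = 0.0560 and 0.103). SLC6A12, the betaine carrier, fell by 0.69. SLC38A3, a glutamine carrier, fell by 0.78 on its brightest probe, and its 3 probes, all lower, ran from -4.17 to -0.78. SLC38A2 (SNAT2), a stress-inducible neutral amino acid carrier with 10 measured probes, was not past the threshold (-0.05 ± 0.13). Its value was 0.31 with quantile normalization, past the threshold there (adjusted p = 0.0469). SLC7A8, SLC38A4 and SLC1A1 were called higher, and each call was lost in several other settings. The other SLC7A8 probe gave -0.63, not past the threshold, and SLC1A1 was -0.021 within scan series 1. The taurine carrier SLC6A6 and the leucine carrier SLC7A5 were not analysed here.

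Metal ion carriers held 8 higher and 4 lower members of 22 (27.9% and 30.7% of all genes). The SLC41 family, which carries magnesium, held the highest and the lowest log2 fold change among the 146 measured members, each read by its brightest probe. SLC41A2 was -2.23 to -0.70 in the infarct core and -5.17 to -3.84 in the normal region, without overlap. Its log2 fold change was 2.95 ± 0.36 (adjusted p = 1.86e-06), with 3.01 within scan series 1 and 3.22 within series 2, and its second probe rose by 2.14. SLC41A1, the sodium-coupled magnesium exporter, averaged -0.64 ± 1.77 in the infarct core (n = 9) and 2.55 ± 0.67 in the normal region (n = 6), a log2 fold change of -2.96 ± 0.50 (adjusted p = 5.36e-05). It was lower in 5 of 6 pigs, the exception being secretome pig 15, whose infarct core array was the highest (2.57), and the lowest was that of medium pig 40 (-3.62). SLC41A3 fell by 0.53. Each of SLC41A1 and SLC41A3 was read by 1 probe, and the probes of the 2 SLC41 genes that moved most are shown because they carry the largest differences.
SLC41A2 brightest probe: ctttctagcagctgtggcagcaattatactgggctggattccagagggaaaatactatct
SLC41A1 probe: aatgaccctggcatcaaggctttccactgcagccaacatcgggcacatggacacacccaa

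Zinc carriers made up 6 of the 8 higher members, and their families, SLC30 and SLC39, also supplied most of the measured members of the group. SLC39A7, which releases zinc from the endoplasmic reticulum and Golgi, rose by 1.30 ± 0.19, and SLC30A7 and SLC30A5, which load zinc into the Golgi, rose by 1.18 ± 0.16 and 0.76 ± 0.14. SLC39A1, a zinc importer of the cell surface, rose by 1.04 ± 0.13. These 4 were higher in all 6 pigs without overlap. Of the 4 SLC39A7 probes, 3 were higher and 1 was not past the threshold (0.06). SLC30A2 and SLC30A4 rose by 1.24 and 0.42, and the copper importer SLC31A1 by 0.77. SLC30A1, the zinc exporter of the surface, and SLC30A3 fell by 0.49 and 0.77; the SLC30A1 call was lost without pig 10 (adjusted p = 0.114). The ferrous iron carrier SLC11A2 and the zinc and iron carrier SLC39A8 were not past the threshold (-0.16 ± 0.16 and 0.19 ± 0.55). SLC40A1, the iron exporter, was not analysed here. Of 16 iron handling partners 4 were higher and 6 lower, HMOX1 by 2.03 and CD163 by 1.25, TFRC by -1.21.

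SLC11A1 (NRAMP1), the iron and manganese carrier of macrophage phagosomes, depended on its probe. The brightest probe gave 0.59 ± 0.43 (adjusted p = 0.260), and its mean level was 2.88 higher in scan series 1 than in series 2. The second probe gave 2.67 ± 0.25 and was past the threshold. When scan series was added as a covariate, the brightest probe gave 0.41 (adjusted p = 0.00751). Their sequences are given for that reason.
SLC11A1 brightest probe: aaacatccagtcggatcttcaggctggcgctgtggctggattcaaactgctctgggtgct
SLC11A1 second probe: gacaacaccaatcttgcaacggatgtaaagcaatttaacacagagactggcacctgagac

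Carriers of protons, sodium, chloride, calcium and bicarbonate held 4 higher and 4 lower members of 18 (27.9% and 30.7% of all genes). The scaffold SLC9A3R1 (NHERF1) rose by 1.18 ± 0.21, the anion exchanger SLC26A6 by 0.93 ± 0.18 and SLC26A11 by 0.39. SLC26A5, SLC9A3 and SLC24A2 fell by 1.09, 0.48 and 0.47. The bicarbonate exchanger SLC4A2 was not past the threshold (-0.12 ± 0.15). Of the phosphate carriers, SLC34A1 and SLC34A3 fell by 1.17 and 0.88 and SLC34A2 was not past the threshold. SLC34A1 was well above background on 11 arrays, and the SLC34A3 call was lost without pig 10, 11, 13 or 14 (highest adjusted p = 0.343, without pig 10).

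Nucleoside and nucleotide sugar carriers held 4 higher and 4 lower members of 16, near the shares of all genes (27.9% and 30.7%). SLC35B3 and SLC35C2, which supply sulfate donors and take part in fucosylation in the Golgi, rose by 0.83 each. SLC29A3, a lysosomal nucleoside carrier, rose by 0.62 and SLC35A5 by 0.39. Of the 3 SLC35A5 probes 2 were not past the threshold. SLC35F3, SLC35A4, SLC35D1 and SLC28A1 fell by 1.03, 0.79, 0.64 and 0.51. Of the vesicular, vitamin, lysosomal and other carriers, 4 of 14 were higher and 4 lower, also near those shares. SLC46A2 and SLC18B1, a vesicular polyamine carrier, rose by 1.93 ± 0.22 and 1.41 ± 0.19 and were higher in 6 of 6 pigs. In the normal region SLC18B1 was well above background on 3 of 4 secretome and 0 of 2 medium arrays, which limits the size of its fold. SLC19A2, a thiamine carrier, fell by 1.23 ± 0.29 and SLC17A4, an organic anion carrier, by 2.01 ± 0.58. The infarct core arrays of SLC17A4 ran from -6.94 to -2.88. It was lower in every pig with both regions but secretome pig 15 (-2.88 in the infarct core, -4.65 in the normal region). The riboflavin carrier SLC52A3 rose by 0.43 on its brightest probe (adjusted p = 0.0324) and fell by 0.71 on its second (adjusted p = 0.0124).

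Some member probes share stretches of sequence with probes of another name or of no name. Probes without a gene symbol (28983 of 43603) are counted below as probes of other names, and whether they read other genes is unknown. A run of 14 bases was shared with 6 or more probes of other names by 6 of the 322 member probes (1.86%), against 1.89% of all 43603 probes, and 5 of the 6 were the brightest probe of their gene. No other member probe shared a run with more than 5. The 5 probes follow, with the bases that lie in such runs in capitals.
SLC37A4 probe, with 32 others: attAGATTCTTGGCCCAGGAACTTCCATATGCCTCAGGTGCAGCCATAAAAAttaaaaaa
SLC25A37 brightest probe, with 19 others: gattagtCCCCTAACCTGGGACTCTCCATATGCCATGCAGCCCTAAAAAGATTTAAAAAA
SLC39A14 brightest probe, with 15 others: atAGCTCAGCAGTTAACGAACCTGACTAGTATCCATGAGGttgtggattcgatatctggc
SLC2A11 brightest probe, with 14 others: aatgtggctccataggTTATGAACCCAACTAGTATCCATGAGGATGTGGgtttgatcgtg
SLC29A1 brightest probe, with 6 others: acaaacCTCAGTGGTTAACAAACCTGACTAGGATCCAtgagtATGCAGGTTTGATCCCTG
The mean level of the last 4 was 1.94 to 2.39 higher in scan series 1 than in series 2, and that of SLC37A4 was 0.41 higher. Whether the shared runs account for these levels was not tested.

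For a pair of these genes the other probes gave another answer. SLC29A1 (ENT1), the adenosine carrier, was not past the threshold on its brightest probe (-0.10 ± 0.36), and its other 4 probes fell by 1.04 to 1.43. The brightest of these, without such runs, is shown here.
SLC29A1 second probe, lower in the infarct core: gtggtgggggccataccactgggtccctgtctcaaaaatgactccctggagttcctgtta
SLC2A11 (GLUT11), a fructose and glucose carrier of muscle, gave -0.26 ± 0.33 on its brightest probe and fell by 1.46 on the second (adjusted p = 4.54e-05). SLC39A14 and SLC25A37 (mitoferrin), which imports iron into mitochondria, were not past the threshold on either kind of probe. SLC37A4, the glucose-6-phosphate carrier, had 1 probe, which fell by 0.33 in 6 of 6 pigs (adjusted p = 0.0174) and turned to 0.49 with quantile normalization.

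**Figure D3:**
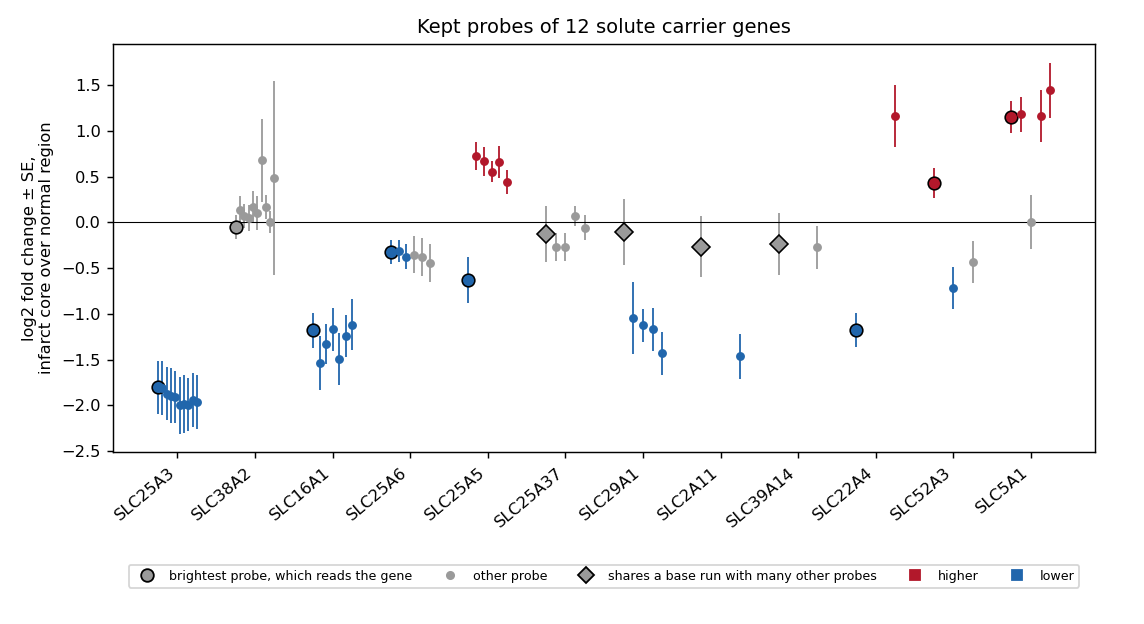
Log2 fold change with its SE (y axis) of each kept probe of 12 solute carrier genes in the infarct core over the normal region. Large outlined symbols mark the brightest probe of a gene and diamonds a probe that shares a run of 14 bases with 6 or more probes of other names; the probes of SLC25A3 and SLC16A1 move alike, and those of SLC29A1, SLC25A5, SLC22A4 and SLC52A3 do not.

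In the border zone, no member passed the threshold against the normal region in limma, where 0.624% of all genes did, and 25 of 146 members had an unadjusted p under 0.05 (17.4% of all genes). The smallest p-values were those of SLC3A1, SLC7A10, SLC2A6, SLC25A24 and SLC46A2. SLC7A10 had a lowest, median and highest level of -1.48, 1.14 and 1.86 in the border zone, against -1.66, -0.69 and 0.04 in normal region arrays, a log2 fold change of 1.64 ± 0.41 (adjusted p = 0.0678). SLC3A1 gave 1.08 ± 0.25 (adjusted p = 0.0530), SLC2A6 0.87 ± 0.23 (adjusted p = 0.0927), SLC25A24 0.53 ± 0.15 and SLC46A2 0.76 ± 0.22. SLC2A4 averaged 4.57 ± 1.14 over border zone arrays (n = 9), against 5.48 ± 0.50 in the normal region (n = 6). SLC41A1 averaged 1.52 ± 1.33 against 2.55 ± 0.67, and both overlapped. These means mix the scan series unequally. Within series 1 (n = 5 and 2) SLC2A4 was 3.75 against 5.01, and within series 2 (n = 4 and 4) 5.61 against 5.72. SLC41A1 was 0.56 against 1.79 within series 1 and 2.72 against 2.93 within series 2. Fibroblast and scar markers had a mean level of 2.29 to 5.08 in the border zone, against 2.56 to 3.86 in normal region arrays, and cardiomyocyte markers 8.13 to 9.60, against 8.93 to 9.62.

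Between the infarct core and the border zone, which all 9 pigs had, 35 members were higher and 39 lower in the infarct core, against 26% and 26.2% of all genes (52.2% in all). More than 2-fold changes numbered 11 higher and 12 lower (9.58% and 8.99% of all genes). Of the called members, 24 were higher and 10 lower in every pig (15.7% and 14.3% of all genes). This comparison and that with the normal region share the infarct core arrays. SLC38A5, SLC2A8 and SLC39A1 were higher in the infarct core without overlap (2.4% of all genes), and no member was lower without overlap (0.352% of all genes). SLC38A5 was 1.96, 2.90 and 3.20 (lowest, median and highest) in the infarct core, against 0.18, 0.85 and 1.81 in the border zone, a log2 fold change of 1.70 ± 0.25 (adjusted p = 2.63e-05). SLC2A8 was 1.15 to 1.88 in the infarct core and -0.53 to 0.75 in the border zone, 1.25 ± 0.15 higher (adjusted p = 6.98e-06). SLC2A6 rose by 1.69 ± 0.20 and SLC41A2 by 1.76 ± 0.31, both in 9 of 9 pigs.

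Against the border zone, 7 of 15 members of the glucose and hexose group were lower and 3 higher in the infarct core. Among all genes 26.2% were lower and 26% higher. Of the monocarboxylate carriers 2 of 5 were lower and none higher, and of the mitochondrial carriers 6 of 16 were lower and 2 higher. SLC2A4 fell by 2.13 (adjusted p = 0.000158), SLC41A1 by 2.20, SLC22A16 by 2.0, SLC16A7 by 1.82 and SLC25A3 by 1.52, each in 8 of 9 pigs. The exception was secretome pig 15 for all 5 genes. Its cardiomyocyte marker level was 9.22 in the infarct core, the highest there, and 9.30 in the border zone, while medium pig 40 had the lowest infarct core level (3.65); their part in these values was not tested. SLC2A12, SLC5A10, SLC16A1 and SLC1A3 fell by 1.16, 1.19, 1.15 and 1.1 in 9 of 9 pigs. SLC16A1 was -0.12 to 1.30 in the infarct core and 1.20 to 2.63 in the border zone, with 2 arrays of each region in the overlap, while its border zone and normal region means were close (1.74 ± 0.44 and 1.65 ± 0.18). SLC7A10 was higher in 7 of 9 pigs (1.30 ± 0.35). SLC6A8 was not past the threshold (-0.44 ± 0.32, adjusted p = 0.265), and without the border zone array of pig 40 it was (adjusted p = 0.0297). Of the called members 73 of 74 had the same direction within both scan series, the exception being SLC30A9. They were called on the arrays of both series, so this too is no independent check. Cardiomyocyte markers were lower in the infarct core than in the border zone for 10 of 10, and macrophage markers higher for 12 of 12.

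Secretome and medium pigs were compared within each region. No member passed the threshold in limma in the infarct core, the border zone, the normal region or the average of infarct core and border zone, where 0.032%, 0%, 0% and 0% of all genes passed. An unadjusted p under 0.05 was found for 9, 11, 2 and 13 members (5.54%, 8.73%, 1.47% and 6.3% of all genes). These counts rest on single pigs: without medium pig 40 they were 1, 1, 2 and 2 (1.14%, 1.81%, 1.01% and 1.28% of all genes), and without medium pig 10 they were 25, 32, 16 and 35 (15.7%, 26.7%, 6.37% and 25.5%). Leaving out any other single pig gave 5 to 11, 9 to 12, 1 to 3 and 7 to 13 members. The shares of all genes were then 3.42% to 6.64%, 5.18% to 12.3%, 1.17% to 2.32% and 4.11% to 8.35%. With scan series as a covariate the counts were 21, 21, 8 and 30 (11.8%, 17.5%, 2.93% and 18.2%). The test of a different infarct core against border zone contrast in the arms also gave 0 members (0% of all genes; 10 members at an unadjusted p under 0.05, as 6.25% of all genes). For no member did the infarct core lie above the border zone in all pigs of one arm and below it in all pigs of the other.

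SLC2A6 had the smallest p over the average of infarct core and border zone. In the infarct core it was -1.70, -0.69 and -0.35 (lowest, median and highest) in the 6 secretome pigs, against -0.47, 0.74 and 1.05 in the 3 medium pigs. In the border zone it was -3.34, -2.80 and -1.59 in secretome pigs, against -2.23, -0.83 and -0.26 in medium pigs. Both regions overlapped between the arms. The averaged log2 fold change of secretome over medium was -1.42 ± 0.38 (adjusted p = 0.713). Adding scan series as a covariate gave -1.28 ± 0.25, which passed the threshold (adjusted p = 0.0400), as 0.144% of all genes did. Within scan series 1 (3 secretome and 2 medium pigs) it was -1.55 ± 0.26 (adjusted p = 0.109), and within series 2 (3 and 1) it was -0.77. Medium pig 10 is alone in its arm in series 2, so that value has no spread of its own. In the normal region the arms were -0.39 ± 0.49 apart. Macrophage markers had a mean level of 2.04 to 3.23 in secretome and 3.03 to 3.88 in medium infarct cores, and 0.71 to 1.96 against 1.91 to 2.35 in the border zones. T cell markers were at -3.00 to -0.89 against -1.87 to -0.19 in the infarct cores, and -3.51 to -2.25 against -2.72 to -0.94 in the border zones. The part of either cell type in the SLC2A6 difference was not tested.

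**Figure D4:**
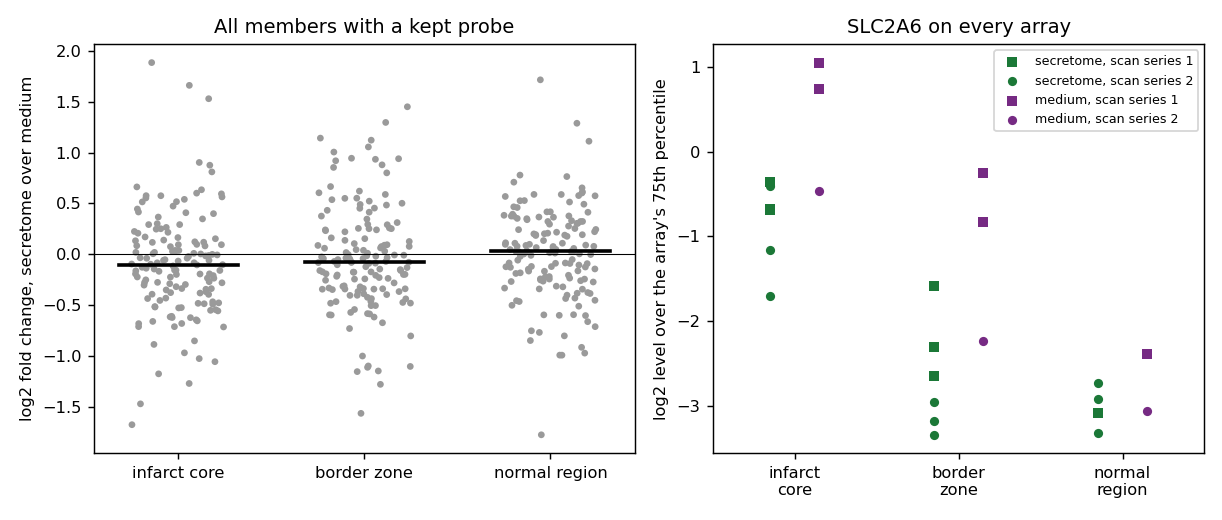
Left, log2 fold change of secretome over medium (y axis) for the 146 measured solute carrier genes in each region, with the median as a bar; all points are grey because none was past the threshold. Right, SLC2A6 level (log2 over the array's 75th percentile) on every array, with secretome left of medium in each region and squares and circles for scan series 1 and 2.

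Small p-values between the arms within a region also belonged to other members. In the infarct core, SLC38A4 gave -1.68 ± 0.50 for secretome over medium, on a probe well above background on 9 arrays, SLC29A3 -0.71 ± 0.27, SLC9A3R1 -0.97 ± 0.39 and SLC22A16 1.88 ± 0.78. The SLC22A16 value was 0.37 without medium pig 40, whose infarct core was at -6.44 against -1.95 and -1.83 in the other medium pigs. In the border zone, SLC27A1 gave 1.12 ± 0.37, SLC3A1 -1.28 ± 0.45, SLC1A3 0.88 ± 0.31 and SLC45A2 0.94 ± 0.34 (adjusted p = 0.662 for each). Without medium pig 40, whose border zone was at -0.61 for SLC27A1 against 1.64 and 1.28 in the other medium pigs, SLC27A1 gave 0.43 and SLC45A2 0.61. In the normal region, with 4 secretome and 2 medium pigs, SLC25A24 gave 0.65 ± 0.31 and SLC5A4 0.76 ± 0.37. None of these was past the threshold. The median over all members was -0.10 in the infarct core, -0.08 for border zones and 0.03 for normal regions.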

How the data were processed

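One-colour arrays were read from the deposited scanner files, whose processed signals are linear intensity values written, per the file headers, by Feature Extraction 10.7.3.1 from Agilent. The deposited series table holds the authors' log2 values, made with limma 3.14.4 per the submitters' processing notes; its scaling is unknown (column medians 7.68 to 7.69), and each of its 24 columns correlated best with its own array. From the intensities, log2 signal minus the 75th percentile of each array was computed, without outlier spots (1 to 27 per array). Probes well above background on at least 3 arrays were kept (34360). Each gene was read by its brightest kept probe. Limma 3.58.1 (R 4.3.3) fitted 6 group means with the pig as random block (correlation 0.548), and p-values were adjusted by Benjamini-Hochberg over all kept probes. The block follows the design, in which regions of a pig come from the same animal. Deviations from group means correlated at a mean r of 0.583 in same-pig pairs (21 of 21 over 0.1), 0.439 between pigs of a scan series (93 of 94) and -0.454 across series, and the block correlation was 0.204 with scan series as covariate. Pigs are separate animals, and their number limits the precision. Probes were named through the file's names or RefSeq names (assembly Sscrofa11.1), and probe sequences came from the deposited files.

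Members and lists were chosen with earlier results of these data known. Named genes are the 12 highest and 12 lowest called in every pig per infarct core comparison, the 5 smallest p-values elsewhere, 4 per transport group, members whose probes oppose each other, and a fixed list. Other members are named to account for a group's calls and were chosen after their values were seen; a few members that count in these totals are not reported here by name. Genes most alike in pattern to SLC40A1 and SLC25A20 are not given, because neither was measured. Alternatives covered scaling, background correction, filter, probe choice, block, scan series, slide and single pigs or arrays.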

Additional observations from a re-analysis of the deposited data

Results flagged for a closer look

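Each of the 74 named genes was examined in the 3 groups of 4 to 6 arrays (222 in all) for a single array far from the others, by Dixon's test at the 95% level. That test marks about 5% of groups by chance, and it marked 13. Of these, 8 lay on the normal region array of secretome pig 16, the only secretome normal region array in scan series 1; the part of the scan series was not tested.

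On that array SLC11A1 was at 1.15 (the other 3 arrays at -1.44 to -1.38), SLC39A14 at 7.02 (4.78 to 4.91), SLC29A1 at 5.36 (2.96 to 3.14) and SLC5A10 at 1.27 (-0.12 to -0.02). SLC4A2 stood at 4.19 (3.35 to 3.42), SLC37A4 at 8.78 (8.27 to 8.33), SLC35A4 at -1.71 (-0.90 to -0.87) and SLC25A24 at -3.53 (-2.89 to -2.82). SLC38A2 was at 4.92 in the normal region of pig 14 (4.38 to 4.45).

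In the secretome border zone, SLC19A2 was at 3.78 (1.59 to 2.20) and SLC17A4 at -6.76 (-3.43 to -2.12) in pig 14, and SLC39A1 at -0.28 in pig 13 (0.20 to 0.31). In the secretome infarct core, SLC25A6 was at 7.0 in pig 15 (7.21 to 7.33).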

How the results depend on the processing

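With the pig as a fixed replicate block, 84 members were called between infarct core and normal region (38 higher, 46 lower) and 78 between infarct core and border zone, where 59.9% and 54.6% of all genes were called. Without any block there were 59 and 48 (19 lower in the second), where 45.1% and 32.1% of all genes were called. Within scan series 2 there were 48 (19 lower) and 31 (22 higher, 9 lower), where 32.9% and 19.5% of all genes were called. Between border zone and normal region, 1 member was called, higher, when probes had to be well above background on 12 arrays. In that setting 25 of 130 members had an unadjusted p under 0.05 in limma (18.4% of all genes). With scan series as covariate 1 member was called between the averaged arms.

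Leaving out single pigs gave 67 to 83 calls between infarct core and normal region (29 to 39 higher, 34 to 46 lower; 48% to 60.3% of all genes), 0 to 1 between border zone and normal region (0 to 1 higher) and 63 to 78 between infarct core and border zone (34 to 37 higher, 28 to 41 lower; 43.8% to 54.7% of all genes).

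Of 3662 values of single genes under alternatives, 196 lost the call and 70 gained one with the same sign. A further 19 changed sign where either fit was past the threshold. The other 3377 kept their side of the threshold, and changes of sign between values not past it are counted among them. Of these, 145 come from the probes without shared runs, a setting that uses the main fit. With quantile normalization, normexp and the authors' values, SLC25A6 was 0.36, 0.32 and 0.19 against the normal region and 0.39, 0.35 and 0.23 against the border zone, and SLC38A2 was 0.31, 0.33 and 0.33 against the normal region. SLC37A4 was 0.49 and 0.48 with the first 2 settings, and 0.41 and 0.39 against the border zone. With the mean over probes, SLC25A5 was 0.41 and 0.30, SLC7A8 -0.056 and SLC52A3 -0.24, and SLC22A4 was 0.15 against the border zone. SLC1A1 was -0.021 within scan series 1. The cause was not tested. Genes well above background on few arrays are limited by their signal. The border zone array of pig 40 and the probes without shared runs were alternatives chosen after seeing the data. With the probes without shared runs 83 members were called against the normal region, and 82 in the main fit. In the former setting 87 of 145 members had an unadjusted p under 0.05 in limma (63.4% of all genes).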

Other observations

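Among 45 measured membrane transport genes without an SLC name, 7 were higher and 20 lower in the infarct core than in the normal region. Among all genes 27.9% were higher and 30.7% lower. The median log2 fold change of the 45 genes was -0.41, against -0.06 over all genes. MFSD2A, a lysophospholipid carrier, rose by 2.79, and AQP7, a water and glycerol channel, fell by 2.59 on the log2 scale.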
